A study of Mus musculus with 3 samples.

Results

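The Sox family transcription factors comprised 10 genes of the 49997 in the count table, chosen by gene symbol: the SoxB1 genes Sox1, Sox2 and Sox3, the SoxB2 gene Sox21, the SoxC genes Sox4, Sox11 and Sox12, the SoxD gene Sox13, the SoxF gene Sox17 and the SoxG gene Sox15. Their transcripts were followed in a YTHDF2 RNA immunoprecipitation sequencing (RIP-seq) experiment on E14 cells, a mouse embryonic stem cell (ESC) line. The libraries were 1 input and 2 YTHDF2 immunoprecipitations (IP), all from cells kept with leukemia inhibitory factor and exposed to doxycycline (Dox) for 24 h. In the cell system of the study, Dox turns on a Dux transgene and a MERVL-tdTomato reporter marks cells that enter a state like that of the 2-cell embryo. All 3 libraries therefore carry the same treatment, so nothing here compares cells with and without Dox. The material is 1 cell line with a single input, and no control-antibody IP entered the analysis. The comparison asks which Sox transcripts were found with YTHDF2 more or less than their level in the input.

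SOX proteins bind DNA through an HMG box related to that of SRY, and the subgroups are defined by the similarity of this box. SOX2 acts with OCT4 (Pou5f1) to keep ESCs pluripotent, SOX1 and SOX3 share its subgroup and mark neural progenitors, SoxC factors act in neuronal differentiation, and SOX17 is a regulator of endoderm. YTHDF2 is a reader of N6-methyladenosine (m6A), a base modification of mRNA deposited within the sequence context DRACH (D is A, G or T, R is A or G, and H is A, C or T), of which GGAC is the common core. Binding by YTHDF2 brings transcripts to deadenylation and decay.

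Of the 10 members, 7 had a single exon in RefSeq (Sox1, Sox2, Sox3, Sox21, Sox4, Sox11 and Sox12) and 3 were spliced (Sox13, Sox15 and Sox17). To show where the m6A core motif lies in the intronless members, the coding GGAC closest to the stop codon is printed with its surroundings in the sense orientation, read from GRCm38, the assembly of mm10. Capitals mark GGAC, or GGACT where a T follows. The Sox1 window is chr8:12397362-12397390 (plus strand), 160 bases before the stop codon. The Sox2 window is chr3:34651222-34651250 (plus strand), 139 bases before it, and holds a further GGAC in small letters. The Sox3 window is chrX:60892102-60892130 (minus strand), 38 bases before it. The Sox21 window is chr14:118234825-118234853, the Sox4 window chr13:28951767-28951795, the Sox11 window chr12:27341250-27341278 and the Sox12 window chr2:152396783-152396811, all on the minus strand, at 34, 82, 43 and 43 bases before the stop codon. All 7 windows lie in the only exon, within the coding sequence.
Sox1: accgtgtcccggGGACctgcgcgagatga
Sox2: cggggacctccgGGACatgatcagcatgt
Sox3: accagggcgccgGGACTgcggtcaatgga
Sox21: caagcctcagctGGACccctaccccgcgg
Sox4: cttcgaattcccGGACTattgcacgcccg
Sox11: gatgatcgcgggGGACTggctggaggcga
Sox12: gatgatcgcaggGGACTggcgctcgtcta

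The motif stood at the same distance from the stop codon in Sox11 and Sox12, and their windows were identical at 22 of 29 bases. The Sox4 window, from the remaining SoxC gene, matched Sox11 at 8 and Sox12 at 11 of the 29 bases. Each of these windows is centred on its own GGACT, so those bases match by construction. The Sox4 site lies 82 bases before the stop codon, not 43, so it need not be the counterpart of the other sites. The presence of the motif did not set the members apart, because 99.5% of the 15227 protein-coding genes tested held GGAC in their exons, searched on the sense strand only, and 93.1% held GGACT, which is also counted under GGAC. The match is a description of sequence, and methylation of these positions was not measured in these libraries.

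**Figure D1:**
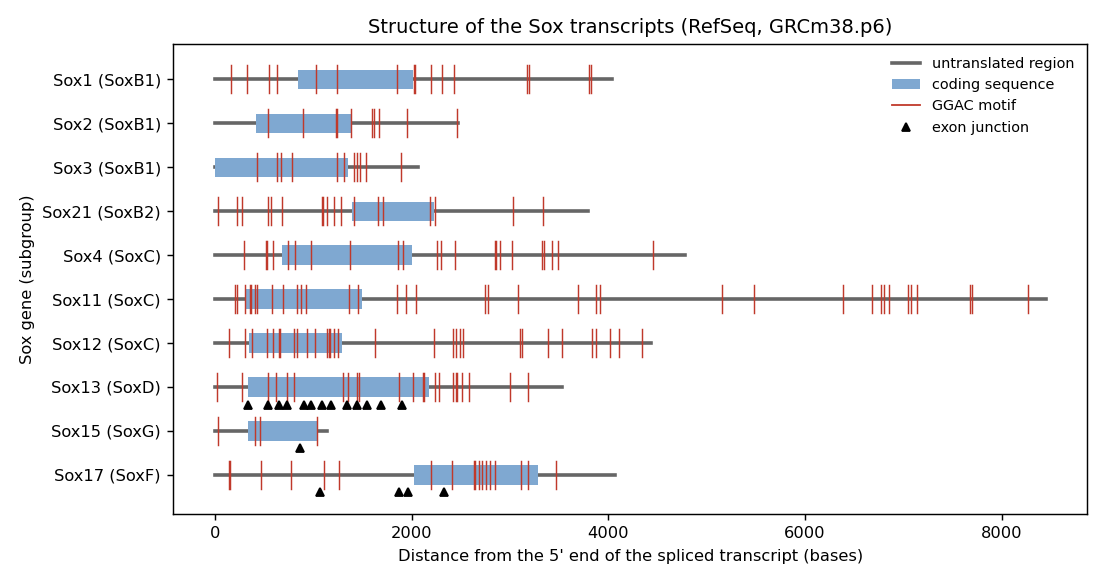
Spliced RefSeq transcripts of the 10 Sox genes drawn to scale, with distance from the 5′ end in bases on the horizontal axis, coding sequence as boxes, untranslated regions as lines, GGAC motifs as red ticks and exon junctions as triangles. The 7 SoxB and SoxC transcripts have no junction, and Sox11 holds the most GGAC motifs, 36 over 8451 bases.

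The libraries were of like depth, with totals of 36986994, 35259827 and 35888743 counts, and 19601 genes, all 10 members among them, were deep enough to be tested. Between the IP libraries, the log2 ratio had an SD of 0.205 over the 12620 genes averaging 100 counts or more. A gene was called enriched or depleted at an adjusted p-value under 0.05 in edgeR and a fold change over 2. Among all genes tested, 15.0% were enriched and 13.0% depleted, and the median log2 fold change was 0.01. The 8 ESC markers checked, Pou5f1 and Nanog among them, were all counted in the input, with summed levels of 8531, 7914 and 7971 CPM (counts scaled to library size) in the input, IP replicate 1 and IP replicate 2. Summed neural markers stood at 86.9, 149 and 144 CPM, with 5 of 7 deep enough to test, 0 of 7 at 0 in the input and most of the signal from Tubb3. Endoderm markers were at 22.6, 24.6 and 20.5 CPM with 0 of 7 at 0 in the input, trophoblast markers at 118, 136 and 127 CPM with 1 of 5 at 0 there, and fibroblast markers at 30.4, 15.5 and 16.7 CPM with 2 of 5 at 0. The part of such cells in the results on Sox transcripts was not tested, and in bulk libraries fewer cells of a type and less RNA per cell cannot be told apart.

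Sox2 dominated the family. Its level per transcript length in the input was 590 TPM (counts scaled to length and then to a common total), against 33.5 for Sox12, 29.2 for Sox15, 25.7 for Sox3 and 16.4 for Sox4. Sox1, Sox21, Sox11 and Sox13 formed a low group at 5.33, 4.07, 3.66 and 3.10 TPM, and Sox17 was lowest at 0.553 TPM. With a single input there is no spread between samples, so neighbours in this order were compared by their 95% Poisson intervals, with counts halved because both mates of a read pair were counted. The intervals separated Sox2 from Sox12, Sox3 from Sox4, Sox4 from Sox1, and Sox13 from Sox17. They overlapped for Sox12 and Sox15, for Sox15 and Sox3, and for each neighbouring pair from Sox1 to Sox13. The place of Sox13 is uncertain, because the table counts a copy of its exons on an alternate scaffold in its length (7413 bases against 3881 on chromosome 1), and with main-chromosome lengths for all genes its input level was 5.72 TPM.

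In both IP libraries Sox2 remained first, at 1207 and 1123 TPM, and Sox3 came next, at 71.8 and 70.9 TPM, ahead of Sox12 at 55.2 and 59.5 TPM. Sox3 thus moved from rank 4 in the input to rank 2 in each IP library. Sox15, Sox1 and Sox4 followed in that order in both, while the order of Sox11, Sox13 and Sox21 changed between the IP libraries. With main-chromosome lengths for all genes that order was the same in both, with Sox13 at 8.46 and 9.99 TPM ahead of Sox11 and then Sox21. The place of Sox21 beside Sox11 is also uncertain. Reads over the 713 bases it shares with another gene were left out of its counts but those bases stayed in its length. Sox17 was last in all 3 libraries.

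Sox2 held 78.1% of the counts of the 10 members in the input (95% Wilson interval 77.7 to 78.6), 80.9% in IP replicate 1 (80.6 to 81.2) and 80.0% in IP replicate 2 (79.7 to 80.3). Such intervals reflect counting error alone and treat the mates of a pair as separate. All 10 members together made up 0.0876% of the input library and 0.166% and 0.157% of the IP libraries. The rise was also present without Sox2, where the other members summed to 7084 input counts and to 11210 and 11249 counts in IP replicates 1 and 2. That sum does not describe each member. In CPM, Sox4 was lower in both IP libraries, and the input of Sox15, Sox17 and Sox21 lay between them.

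**Figure D2:**
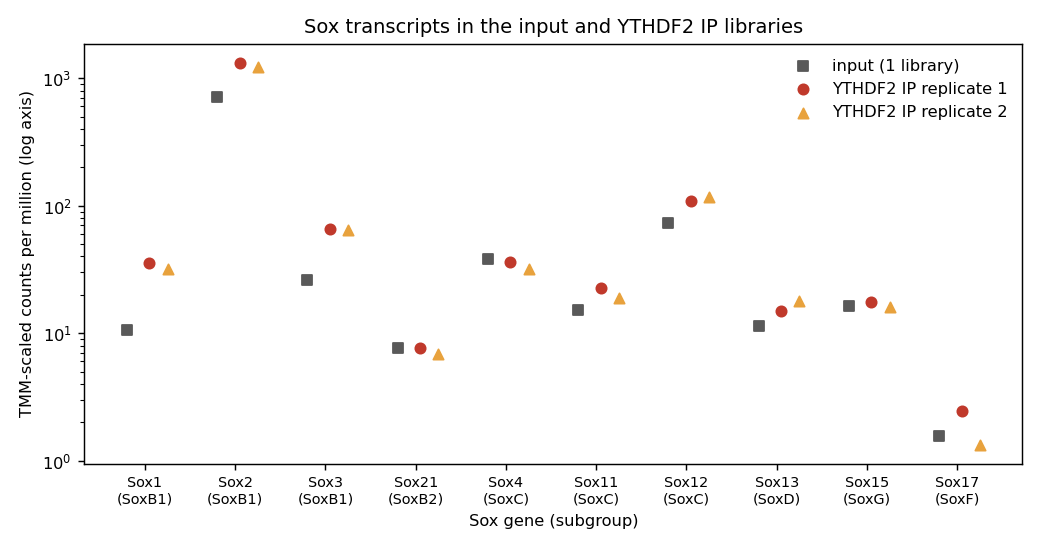
Levels of the 10 Sox transcripts in each library, in TMM-scaled CPM on a log axis, with the input as squares, IP replicate 1 as circles and IP replicate 2 as triangles. Sox2 lies above all other members in every library, and both IP points of Sox1, Sox2 and Sox3 lie clearly above their input point.

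Among the 10 members, the SoxB1 transcripts had the highest log2 fold changes without correction for GC content. With the GC trend over all genes removed, Sox11 at 0.54 lay above Sox3 at 0.23. Sox1, a neural progenitor factor, was counted 374 times in the input and 1285 and 1175 times in IP replicates 1 and 2. In TMM-scaled units the input stood at 10.6 CPM and the IP libraries at 35.6 and 32.1 CPM, so the IP values lay together and well above the input. Its log2 fold change was 1.68 ± 0.136 (SE), a fold of 3.20, with an adjusted p-value of 1.84e-13 by the quasi-likelihood test of edgeR. Sox1 was called enriched, and 90.1% of all genes tested had a log2 fold change no higher than that of Sox1. The gene is a single exon at chr8:12395519-12399555 on the plus strand.

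Sox3, the X-linked SoxB1 gene at chrX:60891366-60893430 on the minus strand, was counted 923, 2363 and 2381 times in the input, IP replicate 1 and IP replicate 2. The corresponding levels were 26.1, 65.5 and 65.0 CPM, with both IP libraries nearly equal and above the input. Sox3 was enriched with a log2 fold change of 1.32 ± 0.0993 (fold 2.50, adjusted p = 1.84e-14 in edgeR). The exons of Sox3 had a GC content of 66.4%, higher than 99.7% of protein-coding genes tested. After the trend of the log2 fold change with GC content over all genes was removed, the value for Sox3 was 0.23 and the call was lost. Its adjusted p was also above the threshold, at 0.111, when the dispersion was set to 0.1 in place of the estimate from the IP pair.

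Sox2, the pluripotency factor, occupies chr3:34649995-34652461 on the plus strand. It was counted 25316 times in the input and 47438 and 45019 times in the IP libraries, or 716, 1314 and 1229 CPM. Both IP libraries were higher than the input, by log2 ratios of 0.88 and 0.78. The log2 fold change was 0.83 ± 0.0509 (95% interval 0.73 to 0.93). The adjusted p of 1.22e-16 in edgeR passed the threshold, while the fold of 1.78 stayed under 2 over the whole interval, so Sox2 was not called enriched. With the dispersion set to 0.1 its adjusted p was 0.341.

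Of the remaining single-exon genes, Sox12 and Sox11 rose by less than 2-fold. Sox12 (chr2:152393611-152398046, minus strand) was counted 2587, 3899 and 4292 times, or 73.2 CPM before IP and 108 and 117 CPM after it. The estimated log2 fold change was 0.62 ± 0.0758 (fold 1.54, adjusted p = 4.97e-09 in edgeR), and both IP libraries lay above the input. Sox12 also had a high density of GGAC, 6.99 per kb of exon against a median of 4.04 among coding genes. With the GC trend removed its value was -0.08.

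Sox11 (chr12:27334268-27342718, minus strand) has the longest transcript of the members, at 8451 bases. It was counted 538, 819 and 686 times, or 15.2, 22.7 and 18.7 CPM. The IP libraries were again both above the input but further apart, with log2 ratios of 0.58 and 0.30. The log2 fold change was 0.44 ± 0.146 with an adjusted p of 0.00884 in edgeR. With DESeq2, the adjusted p of Sox11 was 0.108 and did not pass. With a dispersion of 0.1, neither SoxC gene passed, at adjusted p-values of 0.493 for Sox12 and 0.643 for Sox11.

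Sox4, the third SoxC gene (chr13:28948919-28953699, minus strand), went the other way in the measured values. It was counted 1361 times in the input and 1299 and 1175 times in the IP libraries, or 38.5, 36.0 and 32.1 CPM. Both IP libraries were below the input, but the log2 fold change of -0.18 ± 0.109 (95% interval -0.39 to 0.04) did not pass the test, with an adjusted p of 0.168 in edgeR. The GGAC density of Sox4, 4.60 per kb, lay above those of Sox1 at 3.96 and Sox2 at 4.05 and below that of Sox3 at 5.33. Among the printed sites, those of Sox3, Sox4, Sox11 and Sox12 carry GGACT, and those of Sox1, Sox2 and Sox21 carry GGAC without the T.

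Sox21, the SoxB2 gene that acts as a repressor against SoxB1 factors (chr14:118233233-118237030, minus strand), was counted 269, 278 and 253 times, or 7.61, 7.70 and 6.91 CPM. The input lay between the IP libraries, and the log2 fold change was -0.06 ± 0.214 (95% interval -0.48 to 0.36, adjusted p = 0.839 in edgeR). Its value turned positive, to 0.038, under total count scaling and was -0.66 with the GC trend removed. The exons of Sox21 overlap those of the antisense noncoding gene Gm4675 by 713 bases, and reads over both genes were left out of the counts. Gm4675 itself was counted 17, 52 and 49 times and was enriched (log2 fold change 1.52 ± 0.598, adjusted p = 0.0281 in edgeR). Strand was not used in counting, so the counts of each gene come from its exons outside the overlap.

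**Figure D3:**
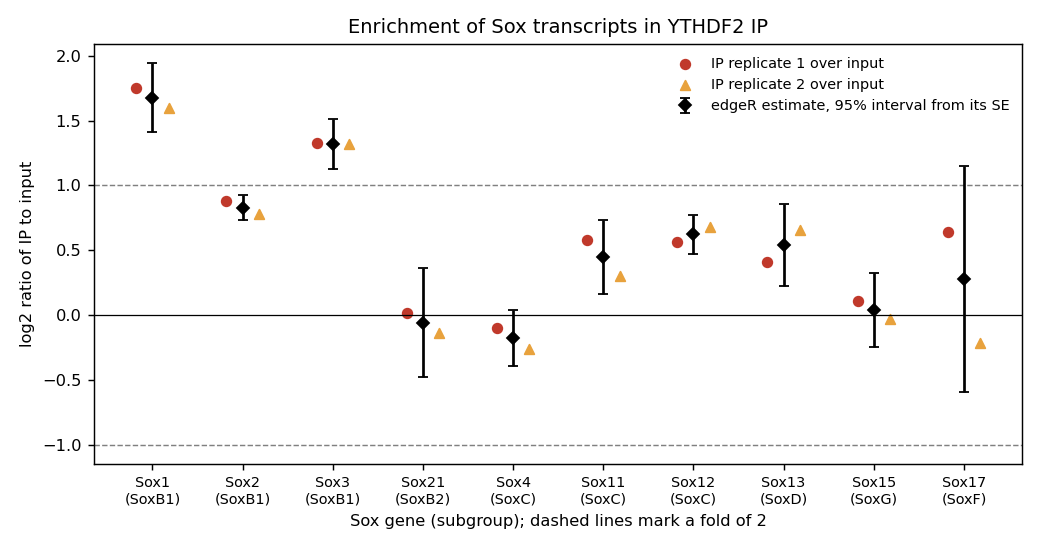
Log2 ratio of IP to input for each Sox gene, with IP replicate 1 as circles, IP replicate 2 as triangles and the edgeR estimate as diamonds with its 95% interval; dashed lines mark a fold of 2. Sox1 and Sox3 lie wholly above the upper dashed line at 1.68 and 1.32, Sox2 lies under it at 0.83, and the intervals of Sox21, Sox4, Sox15 and Sox17 cross 0.

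Of the 3 spliced members 0 were enriched, where 14.6% of multi-exon coding genes were. Their log2 fold changes ran from 0.04 to 0.54, within the range of the single-exon members. Sox13, a SoxD factor without a transactivation domain of its own (chr1:133382300-133424459, minus strand), was counted 399, 542 and 653 times, or 11.3, 15.0 and 17.8 CPM. Both IP libraries were above the input, with log2 ratios of 0.41 and 0.66. The log2 fold change was 0.54 ± 0.161 and passed the test at an adjusted p of 0.00404 in edgeR, with a fold of 1.46. It did not pass with DESeq2, at an adjusted p of 0.0756. With the GC trend removed the value was -0.20, and with a dispersion of 0.1 the adjusted p was 0.563. Since reads matching several places were left out and an alternate scaffold carries a copy of these exons, the counts of Sox13 are uncertain.

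Sox15, the SoxG gene, which is expressed in ESCs (chr11:69655037-69656727, plus strand), was counted 578, 637 and 585 times, or 16.3, 17.6 and 16.0 CPM. The input again lay between the IP libraries. Its log2 fold change was 0.04 ± 0.146 (95% interval -0.24 to 0.33, adjusted p = 0.835 in edgeR). The value was negative with a trend removed, at -0.46 for GC content, -0.13 for length and -0.25 for exons per kilobase. The last exon of Sox15 shares 31 bases with the antisense gene Mpdu1, which was counted 4686, 3496 and 3343 times and had a log2 fold change of -0.49.

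Sox17 (chr1:4490928-4497426, minus strand) was the least counted member, at 55, 88 and 49 counts, or 1.56, 2.44 and 1.34 CPM. One IP library was above and the other below the input, with log2 ratios of 0.64 and -0.22, so its direction rested on the choice of library. The log2 fold change of 0.28 ± 0.447 (95% interval -0.60 to 1.15) had an adjusted p of 0.624 in edgeR, and a change of 2-fold upward lay inside the interval.

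In all, 2 of the 10 members were enriched, Sox1 and Sox3, against 15.0% of all genes, and 0 were depleted, against 13.0%. In edgeR, 0 members were lower at an unadjusted p under 0.05, against 30.5% of all genes, and with DESeq2 0 were depleted, against 10.2%. At an adjusted p under 0.05 and any fold, 6 of the 10 members were higher in the IP (Sox1, Sox2, Sox3, Sox11, Sox12 and Sox13) and 0 lower, where 28.4% of all genes were higher and 28.9% lower. With DESeq2 4 members were higher, without Sox11 and Sox13, against 22.7% of all genes. The same 6 members had both IP libraries above the input, as had 44.2% of all genes tested. The median log2 fold change of the members was 0.49, beside 0.01 for all genes. When the dispersion was set to 0.1, 1 member, Sox1, was enriched and no other member passed at any fold, against 8.05% of all genes under either rule. Removing the GC trend also left only Sox1 enriched, with a log2 fold change of 1.17, against 12.4% of genes with a GC value. It lowered the median of the members to 0.039, beside -0.107 for all genes in that setting.

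Single log2 ratios of an IP library to the input ran from 0.78 to 1.75 for the 3 SoxB1 genes and from -0.26 to 0.68 for the 7 other members. The lowest SoxB1 value, that of Sox2 in IP replicate 2, thus exceeded the highest of the others, that of Sox12 in the same library. This order was lost with the GC trend removed, where the fitted values were 1.17 for Sox1, 0.55 for Sox2 and 0.23 for Sox3, beside 0.54 for Sox11. The SoxC genes spanned -0.26 to 0.68. The difference between subgroups was not tested, since genes are not replicates.

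Exon number and base composition were set beside these values. The 7 single-exon members had a median log2 fold change of 0.62, with 2 of 7 enriched, and the 3 spliced members had a median of 0.28, with 0 of 3 enriched. Among all protein-coding genes tested, 34.1% of the 510 single-exon genes and 14.6% of the 14717 multi-exon genes were enriched, with medians of 0.75 and -0.01. In the GC range of the single-exon members, 46.9 to 66.4%, the median was 0.97 for 387 single-exon genes and 0.18 for 10060 multi-exon genes. The single-exon Sox genes as a set lay below other intronless genes of like GC content by their median, and Sox1, Sox3 and Sox2 took different positions around it, at 1.68, 1.32 and 0.83. Sox4 and Sox21 lay below the 0.13 that marks the lower quartile of those 387 genes. The part of exon number or GC content in the Sox values was not tested.

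**Figure D4:**
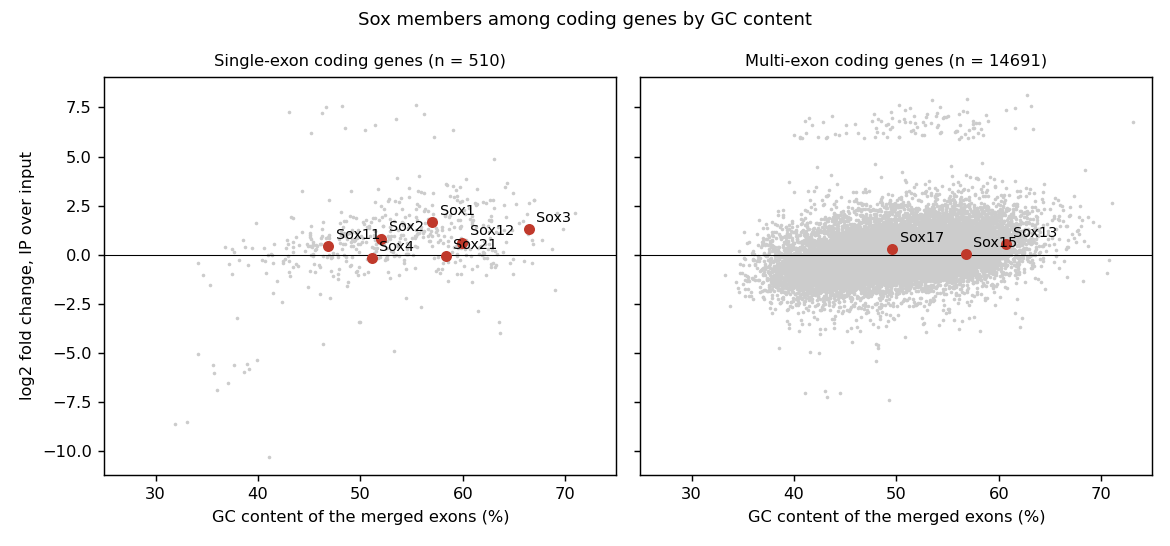
Log2 fold change of IP over input against the GC content of the merged exons (percent), for 510 single-exon and 14691 multi-exon protein-coding genes with a GC value (grey) and the Sox members (red). Sox4, at -0.18, and Sox21, at -0.06, lie in the lower part of the single-exon genes, and the 3 spliced members lie within the multi-exon genes.

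The DRACH context was less dense in the single-exon members than in most coding genes. It occurred 14.6 times per kb in Sox1, 16.2 in Sox2, 11.6 in Sox3 and between 15.5 and 16.7 times per kb in Sox21, Sox12, Sox11 and Sox4. The median was 19.8 per kb among protein-coding genes tested and 17.4 per kb among the single-exon ones. Only 1.33% of coding genes had a density no higher than that of Sox3. Within the transcripts, Sox1 held 16 GGAC, of which 3 were coding and 9 lay in the 3′ untranslated region (UTR). Sox2 held 10, with 4 coding and 6 in the 3′ UTR, and Sox3 held 11, with 6 coding and 5 in the 3′ UTR. Counts of the motif overlapped between members that passed the test and those that did not. Among those that passed, Sox12 held 31 and Sox13 held 23. Among those that did not, there were 22 in Sox4 (12 in the 3′ UTR) and 18 in Sox21 (3 in the 3′ UTR) and 18 in Sox17 (1 in the 3′ UTR), and 4 in the short Sox15 transcript. The largest number, 36, was in Sox11, with 22 in its 3′ UTR.

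Noncoding genes that span Sox loci without sharing exons with them were looked at after their values were seen. Sox2ot, the noncoding gene whose intron holds Sox2, was counted 75 times in the input and 26 and 24 times in the IP libraries. It was called depleted (log2 fold change -1.62 ± 0.502, adjusted p = 0.00565 in edgeR), on the opposite side of 0 from Sox2. Sox1ot, which spans Sox1, was counted 8, 32 and 20 times. Gm46405, which spans Sox4 on the same strand, was counted 0, 33 and 18 times. No p-value is given for Sox1ot or Gm46405, because both passed the low-count filter only through their IP counts.

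The 10 other Sox genes in the table were barely present, summing to 150 counts before IP and to 211 and 285 counts after it. Sox14 and Sry had 0 counts in all 3 libraries. A count of 3, the upper limit that a count of 0 allows if mates were independent, would be 0.0819 to 0.0848 TMM-scaled CPM. The low-count filter kept 8 of the 10, but Sox5 and Sox9 passed it only through their IP counts, so calls among the 8 are not set against those over all genes. With Sox5 and Sox9 set aside, the log2 fold changes of the rest of the 8 ran from -0.39 to 1.41. Sox5, a SoxD gene, was counted 0, 11 and 13 times, and its counts are uncertain because an alternate scaffold carries a copy of its exons, as for Sox13. Set against a floor of 3 counts in the input, 0.0848 CPM, the mean of the IP libraries was 0.330 CPM, 3.89-fold the floor. The lower IP library stood at 3.59-fold. These folds are not lower bounds, because mates were counted separately and the IP counts are themselves low. Since Sox5 could only come out higher, no p-value is given for it. Sox6, the remaining SoxD gene, was counted 18, 36 and 63 times, with a log2 fold change of 1.41 ± 0.608 and an adjusted p of 0.0461 in edgeR. Without the robust option of the fit, the adjusted p of Sox6 was 0.0512 and the call was lost. The counts of both genes are low.

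The coding genes closest to Sox2 in level over the 3 libraries, by Euclidean distance on log2(TPM + 0.5) among 21890 candidates, were Mrfap1 at 0.121, Zscan4c at 0.285 and Ptms at 0.304. Sox2 itself went from 590 TPM in the input to 1207 and 1123 TPM in the IP libraries. Zscan4c, a gene of the 2-cell-like state, went from 488 TPM to 1210 and 1185 TPM.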

How the data were processed

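Cells, treatment and libraries are as given above. Groups follow the sample titles, and it is not stated whether the 2 IP libraries came from separate cultures, so p-values measure only the spread between these samples, which may be technical. The methods of the study describe an IP from lysate, whereas the labels describe an IP on purified total RNA. Per the submitters' processing notes, reads were handled with fastp 0.19.4 and aligned to mm10 with HISAT2 2.2.1, and DESeq2 1.40.2 was used. The deposited values are raw counts per gene, which the authors made with featureCounts 2.0.3 over RefSeq exons. Per the file headers, each mate was counted separately and strand was not used, although the kit marks it. Reads mapped to several places or over several genes were left out by default. Among counts of 1 to 100, the even share was 61.4%, 64.5% and 64.7% in input, IP replicate 1 and IP replicate 2.

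The 49997 symbols all matched the RefSeq annotation of GRCm38.p6, and start and end were the same for 49630 of 49632 main-chromosome genes. TPM, GC content and motif density used the merged exons of the table. Counts were tested in R 4.3.3 with edgeR 4.0.16 (filterByExpr, TMM factors of 0.957, 1.02 and 1.02, robust quasi-likelihood F test, Benjamini-Hochberg over 19601 genes). The model has 1 residual degree of freedom, from the IP pair, since the input has no replicate. The common dispersion of 0.00538 equals a CV of 7.33%. Single-library log2 ratios used an offset of 0.5 counts, fitted values the prior count of 0.125, and 95% intervals the SE. The script was tested on simulated data.

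The members, lists and tests were chosen with earlier results of these data known. By rule, all members were named, other list genes where called, and genes whose exons overlap a member. Outside that rule, Pou5f1, Nanog, Tubb3, Sox14, Sry, Sox2ot, Sox1ot and Gm46405 were named after their values were seen. The lists were other Sox genes, HMG-box genes outside the family, SOX2-OCT4 targets, SOX partners and markers of ESCs, endoderm, neural cells, fibroblasts and trophoblast. Alternatives were DESeq2 1.42.0, RLE and total count scaling, no filter, halved counts, a dispersion of 0.1, no mitochondrial genes, removal of trends (loess, span 0.5) with GC content, length or exons per kilobase, and leaving out each IP library. A fit without the robust option was added after seeing the data.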

Additional observations from a re-analysis of the deposited data

How the results depend on the processing

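No paired analysis was possible because only the IP libraries are numbered and the input is 1 library. The number of enriched members, 2, was 1 with the dispersion set to 0.1 and 1 with the GC trend removed, and stayed at 2 under the other alternatives. The number higher at an adjusted p under 0.05 and any fold, 6, was 4 with DESeq2 and 1 with a dispersion of 0.1, and stayed at 6 under the other 6 alternatives that gave a test. Removing a trend kept the adjusted p of the original fit, and leaving out an IP library left no residual spread, so calls there rest on the fold alone. No member was depleted under any alternative run. Over all genes, a dispersion of 0.1 gave 1577 enriched and 1531 depleted in place of 2936 and 2543, and DESeq2 gave 2442 and 2003. The median of the members, 0.49, was 0.59 under total count scaling, which moved the median of all genes by 0.0957, and 0.039 with the GC trend removed, which moved it by -0.114. Leaving out 1 IP library gave medians from 0.48 to 0.57. Sox21 reversed to 0.038 under total count scaling (adjusted p = 0.896 in edgeR). Values for Sox17 ran from -0.22 without IP replicate 1 to 0.64 without IP replicate 2, those for Sox15 from -0.03 to 0.11 and those for Sox21 from -0.14 to 0.02. With the GC trend removed, Sox2 was at 0.55, Sox11 at 0.54, Sox4 at -0.40, Sox15 at -0.46 and Sox21 at -0.66. The cause of these shifts was not tested. Depth limits Sox17 and the other Sox genes most, and the single input gives no spread of its own.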

Other observations

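Genes that share the HMG box but lie outside the Sox family were set beside it as a description. Of 22 tested, 0 were enriched and 5 depleted, against 15.0% and 13.0% of all genes, with a median log2 fold change of -0.29. At an adjusted p under 0.05 in edgeR and any fold, 6 were higher and 10 lower, against 28.4% and 28.9% of all genes. Hbp1, a transcriptional repressor, was counted 839 times in the input and 71 and 107 times after IP (log2 fold change -3.28 ± 0.200, SE). Tox4, with 3787, 1023 and 1064 counts, was at -1.90. Hmgb2, an abundant chromatin protein gene with 35594, 14207 and 14945 counts, was at -1.33, Tcf7, a WNT effector, at -1.15 and Tox3 at -1.05. In each of these 5 genes both IP libraries were below the input.

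Of the 7 genes listed as bound by SOX2 with OCT4, all passed an adjusted p under 0.05 in edgeR, 4 higher and 3 lower in the IP, with a median of 0.40. Over all genes 28.4% were higher and 28.9% lower by that rule, and 2 of the 7 were enriched against 15.0% of all genes. Fgf4, the growth factor that prepares ESCs for differentiation, was counted 8291, 28163 and 27511 times and was enriched (log2 fold change 1.71 ± 0.0557, adjusted p = 4.45e-25 in edgeR). Lefty1, a Nodal antagonist, was enriched at lower counts of 45, 156 and 158 (1.76 ± 0.357, adjusted p = 5.28e-05 in edgeR). Among 10 listed SOX partners the median was 0.31, and 1 was enriched, a share no higher than the 15.0% of all genes, the single-exon POU gene Pou3f3 (73, 299 and 227 counts, 1.81 ± 0.292, adjusted p = 1.48e-06 in edgeR). Of the marker genes tested, 0 were enriched and 1, Dab2, was depleted, at -1.23, against 15.0% and 13.0% of all genes.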
